A study of Mus musculus with 6 samples.

Results

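The 9 Usher syndrome gene homologues of the mouse were described in wild-type retina. They were Myo7a, Ush1c, Cdh23, Pcdh15, Ush1g and Cib2, whose human counterparts are listed under Usher type 1, Gpr98 and Dfnb31 (type 2), and Clrn1 (type 3). Members were chosen by gene symbol and not by a rule on their values, but earlier results of these data were known when they were chosen. Of the 15465 genes in the tables, 8 matched by the listed symbol, and Dfnb31 matched through RefSeq, which gives it as an older name of Whrn, the symbol under which its row stood. All 9 are therefore accounted for. The samples were 6 wild-type C57BL6/J retina samples without any treatment, and the titles give them as 3 biological replicates with 2 technical replicates each. Each library was made from a pool of 5 mice, and the labels give neither their age nor their sex. Each biological replicate had 1 column of values, so n was 3. There was 1 group and hence no contrast, and the question was how far the members differ in level and how well the 3 pools repeat those levels. The source labels number the samples differently from the titles, and every SD below rests on the titles.

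Usher syndrome joins inherited deafness with retinal degeneration. Its proteins bind each other in complexes. Cadherin 23 and protocadherin 15 are adhesion molecules that form the tip links of hair cell stereocilia, harmonin, SANS and whirlin are scaffolds that hold such complexes together, and myosin VIIa is the motor that moves them. In photoreceptors the type 2 proteins sit at the periciliary membrane next to the connecting cilium, and in the retinal pigment epithelium myosin VIIa also takes part in melanosome movement.

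Values are RPKM, reads scaled to transcript length and to library size, a scale on which levels of different genes can be compared. The unit was inferred, since no header names it. The sum over all genes was 275995 RPKM for replicate 1, 302634 RPKM for replicate 2 and 249532 RPKM for replicate 3, and 11978 genes had 1 RPKM or more in each. The read depth is unknown. Rod markers had a median of 709 RPKM and cone markers one of 92.1 RPKM (8 and 6 genes), so markers of the labelled tissue were present. Markers of neighbouring tissues were also present and moved between pools. The 11 lens genes summed to 672, 322 and 1788 RPKM and the 10 pigment epithelium genes to 509, 484 and 276 RPKM in replicates 1, 2 and 3.

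The levels of the members spanned a factor of 560 (559.5 by the means), from whirlin at the top to harmonin at the bottom. Whrn encodes whirlin, the scaffold of the type 2 complex. It had 50.59, 41.96 and 41.73 RPKM in replicates 1, 2 and 3, a mean of 44.8 ± 5.05 RPKM (SD, n = 3), and 93.0% of genes had a lower mean. It alone held 47.9% ± 3.06 of the summed RPKM of the 9 members. The other type 2 member, Gpr98, encodes the very large adhesion receptor that whirlin binds. It had 6.1, 5.43 and 8.45 RPKM, with a mean of 6.66 ± 1.59 RPKM (SD, n = 3), close to the median of 6.26 RPKM over all genes. Replicate 3 was the high sample of Gpr98, and its 3 values lay far below those of Whrn in each pool. Whrn has 5 transcripts linked to RefSeq, of 797 to 4049 nucleotides, so its RPKM could differ up to 5.08-fold with the length taken by the authors, which is not given.

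Among the type 1 members, the calcium-binding protein gene Cib2 was highest. Cib2 had 13.1, 17.96 and 11.49 RPKM in replicates 1, 2 and 3 (mean 14.2 ± 3.37 RPKM, SD, n = 3), with replicate 2 above the others. The cadherin genes followed. Cdh23 had 10.64, 8.9 and 9.07 RPKM (mean 9.54 ± 0.959 RPKM), highest in replicate 1. Pcdh15 had 7.47, 7.9 and 9.96 RPKM (mean 8.44 ± 1.33 RPKM), highest in replicate 3, the only pool in which it exceeded Cdh23. The motor gene Myo7a had 7.38, 6.38 and 6.25 RPKM (mean 6.67 ± 0.618 RPKM) and stood at the middle of all genes, with 51.6% of them lower.

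The remaining scaffolds of the type 1 complex were low. Ush1g, which encodes SANS, had 1.55, 1.32 and 1.32 RPKM in replicates 1, 2 and 3 (mean 1.4 ± 0.133 RPKM, SD, n = 3). Ush1c, which encodes harmonin, had 0.07, 0.1 and 0.07 RPKM (mean 0.08 ± 0.0173 RPKM). All 3 values of Ush1c lay below 0.11 RPKM in tables rounded to 0.01 RPKM, and only 5.02% of genes had a lower mean. The mean of Cdh23, the cadherin to which harmonin binds, was 119 times that of Ush1c, and that of Myo7a was 83.4 times as high. Clrn1, the type 3 member, encodes the small membrane protein clarin 1. It had 1.57, 1.71 and 1.49 RPKM (mean 1.59 ± 0.111 RPKM), near Ush1g in each pool.

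**Figure D1:**
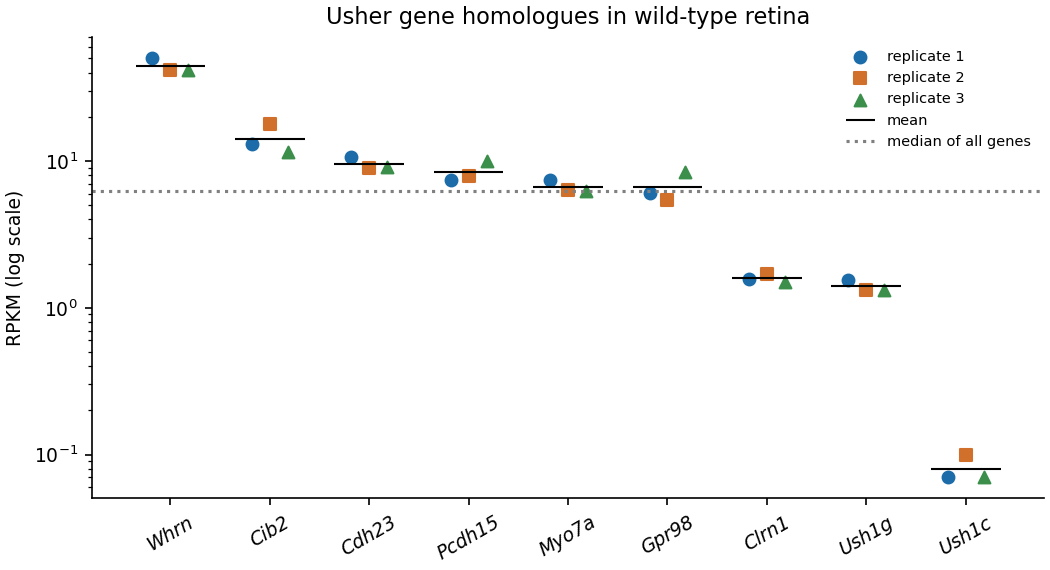
RPKM (log scale) of the 9 Usher gene homologues in the 3 replicates of wild-type retina, with points for replicates, a bar for the mean and a dotted line at the median of all genes (6.26 RPKM). Whrn stands at 41.73 to 50.59 RPKM, 5 members lie between 5.43 and 17.96 RPKM, Clrn1 and Ush1g lie between 1.32 and 1.71 RPKM, and Ush1c is at 0.1 RPKM or below.

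The order of the members had 3 steps that exceeded the spread between pools, taken as a mean difference on the log2(RPKM + 0.1) scale of at least 2 SD with the same sign in each replicate. Whrn exceeded Cib2 by 1.67 ± 0.39 (SD, n = 3), Gpr98 exceeded Clrn1 by 1.98 ± 0.41, and Ush1g exceeded Ush1c by 3.06 ± 0.23 on this scale, each in 3 of 3 replicates. The last value depends on the pseudocount, which exceeds the level of Ush1c. It was 1.15 ± 0.09 with a pseudocount of 1, and the mean RPKM of Ush1g was 17.5 times that of Ush1c. The rule weighs only the spread between pools and not the unknown transcript lengths. The step from Whrn to Cib2 was 3.18-fold, less than the 5.08-fold range of the Whrn transcripts. The step from Gpr98 to Clrn1 was 3.94-fold, and the Clrn1 transcripts range 2.56-fold. Among the 5 members between Whrn and Clrn1, no adjacent pair met the rule. Pairs further apart in the order were not compared. Cib2 exceeded Cdh23 by 0.55 ± 0.40, Cdh23 exceeded Pcdh15 by 0.18 ± 0.32, Pcdh15 exceeded Myo7a by 0.33 ± 0.32, and Myo7a exceeded Gpr98 by 0.02 ± 0.39. Clrn1 exceeded Ush1g by 0.18 ± 0.17. No p is given for these differences, because the smallest p of a two-sided exact permutation of signs with 3 pools is 0.25.

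Promoter sequences are shown for the 2 highest members, for Cdh23 as the next in order and for Ush1c as the lowest, because the members at the top had the windows richest in CpG. They come from RefSeq on GRCm38.p6, another build than the mm9 of the files, and were matched by symbol. Each is the 250 bases before the annotated start, 5′ to 3′ on the strand of the gene, with every CpG in capitals. The window of Whrn is chr4:63495992-63496241, of Cib2 chr9:54560191-54560440, of Cdh23 chr10:60696491-60696740 and of Ush1c chr7:46238491-46238740, all on the minus strand.
Whrn: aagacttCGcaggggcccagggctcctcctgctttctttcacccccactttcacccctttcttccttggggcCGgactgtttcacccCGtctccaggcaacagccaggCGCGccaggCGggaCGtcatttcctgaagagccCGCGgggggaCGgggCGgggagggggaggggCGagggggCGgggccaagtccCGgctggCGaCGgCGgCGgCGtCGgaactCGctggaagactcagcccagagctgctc
Cib2: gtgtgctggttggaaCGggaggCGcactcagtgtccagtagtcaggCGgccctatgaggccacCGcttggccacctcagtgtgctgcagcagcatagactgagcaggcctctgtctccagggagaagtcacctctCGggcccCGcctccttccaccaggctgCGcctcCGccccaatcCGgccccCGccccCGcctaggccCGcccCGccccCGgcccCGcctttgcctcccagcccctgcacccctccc
Cdh23: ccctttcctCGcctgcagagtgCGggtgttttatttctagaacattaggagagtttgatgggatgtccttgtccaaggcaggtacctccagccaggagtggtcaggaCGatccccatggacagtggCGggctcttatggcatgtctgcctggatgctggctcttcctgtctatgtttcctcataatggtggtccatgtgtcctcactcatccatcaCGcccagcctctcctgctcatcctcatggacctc
Ush1c: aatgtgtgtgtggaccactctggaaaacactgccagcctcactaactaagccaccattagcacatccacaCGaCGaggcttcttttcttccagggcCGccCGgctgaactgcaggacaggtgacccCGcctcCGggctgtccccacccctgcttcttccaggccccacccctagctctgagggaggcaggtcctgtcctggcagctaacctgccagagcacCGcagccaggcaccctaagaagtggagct

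The Whrn window held 21 CpG and that of Cib2 15, against 5 for Cdh23 and 7 for Ush1c. Over 32851 promoter windows of the same length the median was 6 CpG, and 83.7% of them had fewer than Whrn. The window of Gpr98 held 11 CpG, that of Pcdh15 6 and that of Clrn1 4. The 2 windows of Myo7a held 6 and 4. Ush1g had no entry among the windows. Low and middle members thus did not separate by CpG, since Ush1c, at the bottom, had more than Cdh23. TAATCC, the core bound by the photoreceptor factor Crx, was found on either strand in 0 of the 9 windows, and 6.25% of all windows hold it. TGCTGA, part of the site of the rod factor Nrl, was found on either strand for Pcdh15, 248 bases before the start, and for Myo7a, 113 and 84 bases before, in its first window. It is present in 16.1% of all windows. A match of letters is a description of the window, not of binding.

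The spread of each member between pools was tested against that of genes of like abundance with limma's robust prior, on scaled log2(RPKM + 0.1) values. It covered the 12562 genes whose mean reached 1 RPKM. Of the 9 members 8 passed this filter, and Ush1c did not. The test called 683 genes at an adjusted p under 0.05, or 5.44%, and it called 0 of the 8 members. The member with the smallest p was Gpr98, the only 1 under an unadjusted 0.05. Its unadjusted limma p was 0.027 and its limma adjusted p = 0.375. Without replicate 3 its unadjusted limma p was 0.217, and without scaling of the columns it was 0.095. It was 0.00529 without symbols that extend another by a digit and 0.00274 under a wider rule on such symbols chosen after seeing the data, with limma adjusted p of 0.183 and 0.177. After scaling, Gpr98 varied most, with an SD of 0.43 on the log2 scale against a prior of 0.17 at its abundance. Pcdh15 followed with 0.30 against 0.16 (limma adjusted p = 0.855), and Clrn1 varied least, with an SD of 0.01. In the unscaled RPKM the coefficient of variation was 23.8% for Gpr98, 23.7% for Cib2 and 15.8% for Pcdh15, so this order depends on the scaling. The non-robust prior of limma called 0 of all 12562 genes (704 at an unadjusted p under 0.05, with 0 members among them), so its count for the members carries no information.

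Cdh23 and Pcdh15 have symbols that equal another gene's symbol plus a digit, Cdh2 and Pcdh1, and such rows often disagreed between the columns. Without symbols of this kind and the shorter symbols they extend, 237 of 10832 genes were called, or 2.19%, and 0 of the 6 members left in were. Some cadherin rows of this kind showed the disagreement. Cdh24 had 16.69, 0.02 and 15.34 RPKM in replicates 1, 2 and 3, Cdh26 had 0.06, 25.41 and 0.01, Pcdh1 had 0.62, 0.62 and 5.92, and Pcdh12 had 8.14, 0.11 and 0.11. Others of the same kind repeated, such as Cdh20 with 4.4, 4.57 and 4.05 RPKM and Pcdh10 with 5.33, 4.6 and 4.75 RPKM. The coefficient of variation over the 3 values was 10.1% for Cdh23 and 15.8% for Pcdh15. Whether a row holds another gene's value in all 3 columns was not tested. The symbols of the other 7 members are not of this kind.

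Gpr98 and Pcdh15 were the members of highest deviation in replicate 3. Both have long transcripts, as do Cdh23 and Myo7a, whose deviations in that replicate were only 0.03 and 0.01. The deviation used here is the scaled log2 value minus the gene's mean over the replicates. Gpr98, with a transcript of 19338 nucleotides, deviated by -0.08, -0.39 and 0.46 in replicates 1, 2 and 3. The 15 other genes within 0.25 of its length on the log2 scale had medians of -0.04, -0.34 and 0.42. Vps13d, the gene nearest to Gpr98 over the 3 replicates, has a transcript of 15849 nucleotides and had 6.26, 5.39 and 8.44 RPKM, and Birc6, the next, has one of 15768 nucleotides. Both were picked for values like those of Gpr98, so their lengths are given as a description only. All genes compared by length had a mean of 1 RPKM or more. Symbols that equal another plus a digit, and those they extend, were left out of them. Among these genes the median deviation in replicate 3 was 0.24 for the 456 of 8000 nucleotides or more. It was -0.09 for the 2328 of 1000 to 2000 nucleotides. In replicate 2 these medians were -0.22 and 0.11. With this trend on length removed, an alternative chosen after seeing the data, Gpr98 had an unadjusted limma p of 0.731 in place of 0.027. The trend was fitted to these same data, and the part of transcript length in the spread of Gpr98 was not tested.

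Pcdh15 and Cdh23 stood apart from genes of their length in opposite ways in replicate 3. Pcdh15, with a median transcript of 6832 nucleotides, deviated by 0.35, above 97.4% of 891 genes of like length, whose median was 0.14. Cdh23, of 11090 nucleotides, deviated by 0.03, above only 6.06% of 198 genes of like length, whose median was 0.25. Neither was called by the limma test with the trend removed (unadjusted p = 0.247 for Pcdh15 and 0.176 for Cdh23). Myo7a, of 6858 nucleotides, also lay low in replicate 3. It deviated by 0.01, above 12.5% of 889 genes of like length, whose median was 0.14. The genes of like length left out symbols that equal another plus a digit, the kind to which Pcdh15 and Cdh23 belong. Symbols of this kind and those they extend had a median SD of 0.221 on the log2 scale, against 0.142 for other genes. The summed lens genes had the same order of pools as Gpr98, highest in replicate 3 and lowest in replicate 2. Of the 11 lens genes 9 were called as varying, where 5.44% of all genes were. The part of lens in the values of Gpr98 and Pcdh15 was not tested. Cib2, the shortest member at 1433 nucleotides, had the reverse order, with deviations of -0.06, 0.24 and -0.18 where 1165 genes of like length had medians of 0.11 in replicate 2 and -0.10 in replicate 3.

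**Figure D2:**
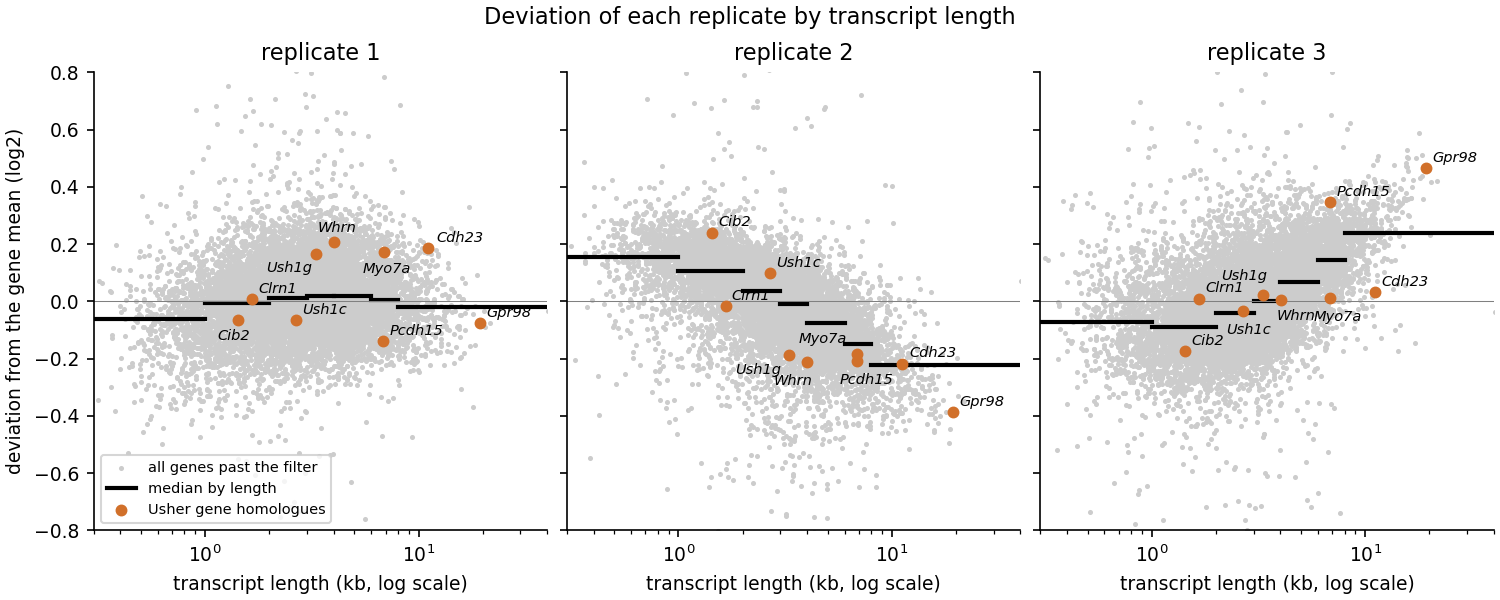
Deviation of each replicate from the gene's mean over replicates (scaled log2 RPKM + 0.1) against transcript length (kb, log scale), with grey points for genes whose mean reached 1 RPKM and whose symbol is not another symbol plus a digit, black bars for the median in each length class and orange points for the members. Long transcripts lie low in replicate 2 and high in replicate 3, where Gpr98 (0.46) is at the end of the trend, Pcdh15 (0.35) lies above it and Cdh23 (0.03) below it. A few points lie beyond the plotted range.

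Whrn, Cdh23, Myo7a and Ush1g, grouped here after their values were seen, had similar deviations across the pools. They deviated by 0.21, 0.18, 0.17 and 0.17 in replicate 1, by -0.21, -0.22, -0.18 and -0.19 in replicate 2, and by 0.01, 0.03, 0.01 and 0.02 in replicate 3. Their deviations of 0.15 or more up in replicate 1 and down in replicate 2, a limit set after the values were seen, were shared by 885 of the 12562 genes, or 7.05%. None of the 4 was called as varying. By the Euclidean distance of scaled log2 values over the 3 replicates, the nearest genes were Mapk8ip2 and Brsk2 for Whrn, Sgsm2 and Bcl9l for Cdh23, Fgd1 and Wdr91 for Myo7a, and Cpsf4l and Mitf for Ush1g. They were Grpel1 and Lsmd1 for Cib2, Epb4.1l5 and Dicer1 for Pcdh15, and Gpd2 and Zfp189 for Clrn1. The genes within a distance of 0.1 numbered 13 for Clrn1, 7 for Myo7a, 2 each for Gpr98 and Cdh23, and 0 for Pcdh15. Nearness over 3 pools of 1 tissue says little.

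Myosin VIIa binds melanosomes of the pigment epithelium through MyRIP and Rab27a, and the genes of all 3 were measured. Myrip had 19.76, 17.46 and 17.28 RPKM in replicates 1, 2 and 3, and Rab27a had 6.85, 5.47 and 5.28 RPKM. Both were highest in replicate 1, as was Myo7a with 7.38, 6.38 and 6.25 RPKM. After scaling, Myo7a had 7.50, 5.85 and 6.70 RPKM and was lowest in replicate 2. Whrn, Cdh23 and Ush1g had this same order of pools after scaling, so it was not particular to Myo7a. The summed pigment epithelium markers were also highest in replicate 1, at 517, 444 and 296 RPKM after scaling, but lowest in replicate 3. All 10 had a row, 9 had 1 RPKM or more in each replicate, and 4 of the 9 tested were called, where 5.44% of all genes were. The 4 called did not share 1 pattern. The pigment genes Pmel (62.68, 51.66 and 18.31 RPKM), Tyrp1 (30.32, 26.49 and 11.47 RPKM) and Mlana (23.72, 20.6 and 7.09 RPKM) were lowest in replicate 3. Rpe65, the isomerase gene of the visual cycle, was highest in replicate 2, with 6.25, 20.06 and 6.74 RPKM. Best1 was the lowest of the 10, with 0.35, 0.37 and 0.29 RPKM. The part of pigment epithelium in the level of Myo7a was not tested. In whole retina, fewer cells of a type and less RNA per cell cannot be told apart.

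The members were also set among their gene families. Myo7a was the sixth highest, with rank 6 of 21 unconventional myosins that had a row, below Myo18a (15.4 ± 0.893 RPKM), Myo9b (14.4 ± 0.571), Myo5a (13.3 ± 1.08), Myo10 (9.14 ± 0.413) and Myo6 (9.05 ± 0.522, SD, n = 3 each). Myo3a, a myosin of photoreceptors and hair cells, was listed at 0 in each replicate. Cdh23 had rank 4 and Pcdh15 rank 6 of 34 non-clustered cadherins by mean RPKM. Cdhr1, the photoreceptor cadherin of outer segment discs, led these at 219 ± 18.8 RPKM, and 6 of the 26 tested were called as varying, where 5.44% of all genes were. These were Cdh13, Cdh18, Cdh24, Cdh26, Pcdh1 and Pcdh12, all with symbols of the digit kind, of which 509 of 1730 were called among all genes. Cdh24 and Cdh26 take ranks 2 and 5. Gpr98 had rank 8 of 25 adhesion receptors, which Lphn1 led at 28 ± 2.18 RPKM. Of the 17 tested 2 were called, where 5.44% of all genes were. These were Gpr124 (1.13, 9.78 and 1.08 RPKM) and Gpr125 (8.61, 0.98 and 8.01 RPKM), both with symbols of the digit kind. They take ranks 13 and 10. Cib1, the paralog of Cib2, had 13.75, 18.06 and 10.97 RPKM, with overlapping values and the same order of pools as Cib2. An exon of Cib2 overlaps one of Sh2d7 on the opposite strand by 227 nucleotides in GENCODE M21, and Sh2d7 had 0.81, 0.85 and 0.64 RPKM. An exon of Ush1c overlaps one of Gm9860 on the opposite strand by 120 nucleotides. Whether reads were counted by strand is not given.

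**Figure D3:**
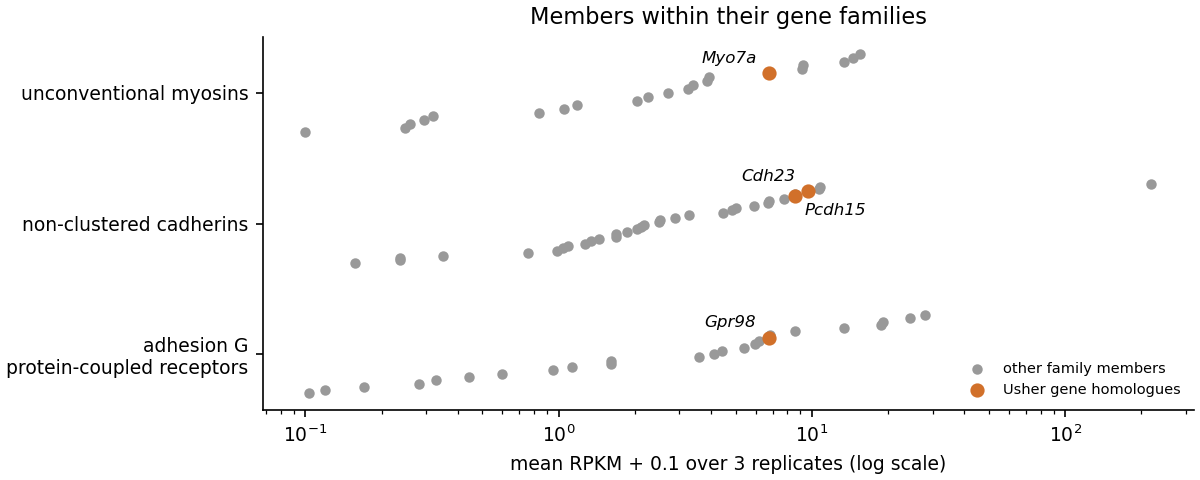
Mean RPKM + 0.1 over 3 replicates (log scale) of the genes of 3 families, each sorted by level from bottom to top, with the Usher gene homologues in orange. Myo7a (rank 6 of 21), Cdh23 and Pcdh15 (ranks 4 and 6 of 34) and Gpr98 (rank 8 of 25) lie in the upper part of their families, and Cdhr1 stands alone at 219 RPKM.

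Genes of known binding partners lay around the level of the members. Of 16 listed partners 15 had a row and 12 had 1 RPKM or more in each replicate, with a median of 6.28 RPKM beside 6.67 RPKM for the 9 members and 6.26 RPKM for all genes. Of the 13 partners tested 0 were called, where 5.44% of all genes were. Rpgrip1, which encodes a protein of the photoreceptor connecting cilium, was highest with 118.42, 136.3 and 151.17 RPKM in replicates 1, 2 and 3. The actin bundler gene Espn had 15.9 ± 2.46 RPKM, Lca5, which encodes the ciliary protein lebercilin, 13.5 ± 1.15, and Eps8, an actin regulator, 13.2 ± 1.18 RPKM (SD, n = 3 each). Vezt, which encodes vezatin, a junction protein that binds myosin VIIa, had 9.51 ± 0.519 RPKM. The membrane scaffold genes Mpp1 and Cask had 6.28 ± 1.08 and 4.89 ± 0.27 RPKM. Pdzd7, which encodes the third scaffold of the whirlin and harmonin family, had 1.69 ± 0.0854 RPKM. Its 3 values, 1.77, 1.6 and 1.7 RPKM, stood between those of Whrn and those of Ush1c in each pool. Spectrin gene Sptbn5 (0.26 ± 0.04 RPKM) and Ninl (0.623 ± 0.0709 RPKM) were the lowest partners.

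Of 16 genes of the stereocilia and their transduction channel 10 had a row, and 0 of 7 tested were called, where 5.44% of all genes were. Gpsm2, a cell polarity gene, led them with 54.6 ± 7.33 RPKM (SD, n = 3), followed by Rdx (12.3 ± 1.02 RPKM), which encodes the membrane linker radixin. Lhfpl5, the tetraspan subunit that binds protocadherin 15 in hair cells, had 3.43, 4.11 and 2.85 RPKM, and Tmie, another subunit, had 0.84, 1.09 and 0.77 RPKM. Both lay below each value of Pcdh15. Tmc1 and Tmc2, the channel genes whose products CIB2 binds, were not analysed here. Of 4 genes of the intestinal brush border complex that harmonin also holds together, 1 had a row, and this was Cdhr2 at 0.03, 0.06 and 0.08 RPKM, like Ush1c near the bottom of the tables. All 6 genes linked to Usher-like disease or named as modifiers had a row. Cep250, a centrosome gene, had 37.21, 39.66 and 38.54 RPKM, and Hars, a transfer RNA synthetase gene, had 15.3 ± 2.94 RPKM. Of the 6 tested 1 was called, where 5.44% of all genes were. It was Abhd12, with 13.99, 0.02 and 75.06 RPKM (limma adjusted p = 1.06e-05), whose symbol is of the kind that equals another symbol plus a digit. Abhd12 and Hars are both among such symbols and those they extend, of which 509 of 1730 were called.

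**Figure D4:**
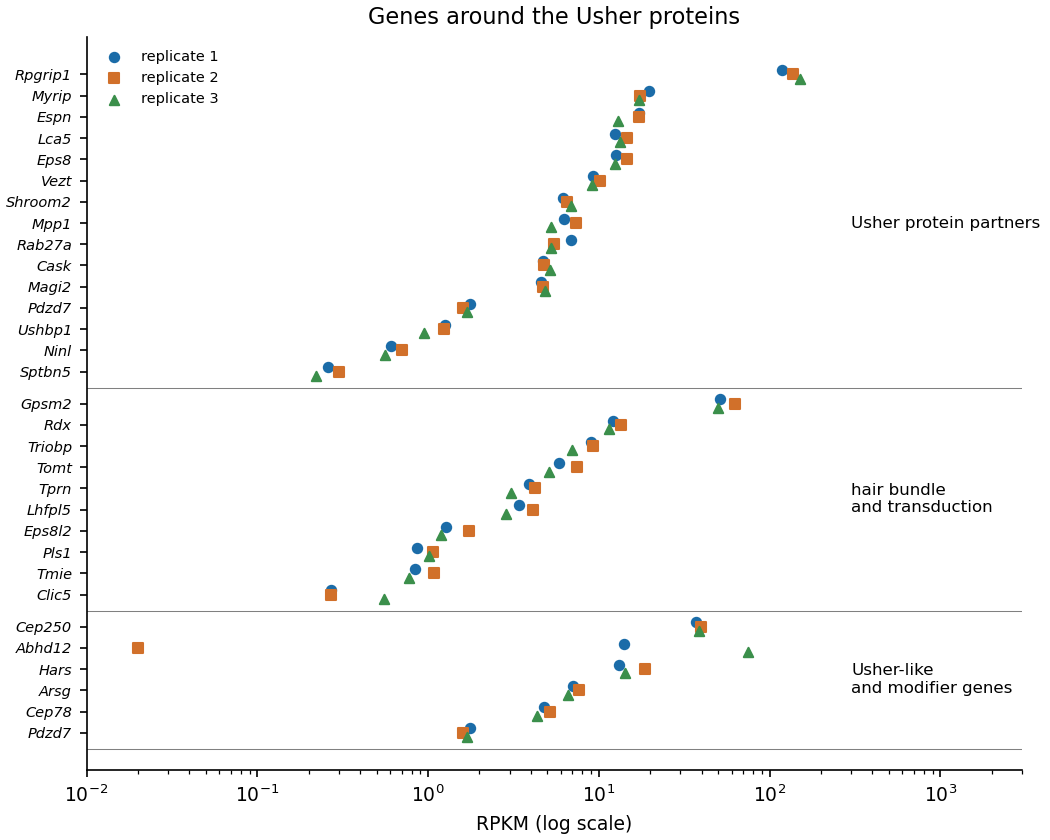
RPKM (log scale) in the 3 replicates of the genes around the Usher proteins that had a row, in 3 lists sorted by mean, with 1 point per replicate. Replicates lie close together for nearly every gene, and Abhd12 is the exception, with 0.02 RPKM in replicate 2 and 75.06 RPKM in replicate 3.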

How the data were processed

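RNA from wild-type retina was sequenced in 6 samples, which form 3 biological replicates with 1 deposited column of values each. Per the submitters' processing notes, GSNAP, HTSeq and genome build mm9 were used, with no version, annotation or filter named there. The deposited values were taken as RPKM from their range and decimals, which does not separate RPKM from FPKM. Tables held 15468 rows, and 3 symbols on 2 rows with identical values were kept once.

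For the test, columns were divided by factors of 0.983, 1.09 and 0.932 (log2 values -0.02, 0.13 and -0.10), each a trimmed mean of log ratios (30% of ratios and 5% of means from each end). Printed levels are unscaled. The variance of log2(RPKM + 0.1) over replicates was set against limma's robust trended prior (limma 3.58.1, R 4.3.3) by an F test. Benjamini-Hochberg adjustment at 0.05 covered every gene whose mean reached 1 RPKM. The test was checked on simulated data, where it found the larger planted changes and missed the smallest. These data were drawn from the fitted prior, without the trend on length or the disagreeing rows, so the check does not cover them. P-values measure only the spread between these pools. Transcript lengths are medians over GENCODE M21 transcripts linked to RefSeq, found for 15231 genes (98.5%). Named genes were all 9 members, the 2 nearest genes of each (symbols of the digit kind left out; those of Ush1c are not reported here), and genes of the lists whose role bears on a member. Members and lists were chosen with earlier results of these data known.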

Additional observations from a re-analysis of the deposited data

How the results depend on the processing

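Of the alternatives tried, 2 were chosen after seeing the data, the removal of the trend on length and the wider rule on symbols. The number of members called as varying was 0 in each of the 10. With the non-robust prior this carries no information, since 0 of all genes were called. The other alternatives called between 0.936% (wider rule on symbols) and 6.32% (no scaling) of the genes tested. At such shares, 0 of 6 to 9 members says little. The number of genes called in all was 683 in the report and fell in other settings to 0 with the non-robust prior (704 at an unadjusted p under 0.05), 237 without symbols that equal another symbol plus a digit, and 98 without symbols that start with another symbol and a digit. Leaving out 1 replicate gave 302 (without replicate 2) to 480 (without replicate 1), with 434 without replicate 3. No filter gave 617, a pseudocount of 1 gave 682, no scaling 794 and removal of the length trend 572. The smallest adjusted p of any member ranged over the alternatives from 0.177 (Gpr98, wider rule on symbols) to 0.994 (length trend removed). The median of the members' mean levels was 6.67 RPKM, between 6.88 and 7.28 with a replicate left out, 6.75 after scaling, and 45.7 once RPKM was multiplied by transcript length in kb, which no longer compares levels per length. Levels of all 9 members moved by less than 1 SD after scaling. The steps of the order that exceeded the spread numbered 3, and 3 or 4 under the alternatives. No paired analysis was possible because there was 1 group. The unknown depth and the rounding to 0.01 RPKM limit what can be said of Ush1c.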
